A study of Mus musculus with 28 samples.

Results

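The 10 genes described here are the members of the mouse cytochrome P450 2C family that RefSeq accessions on the array identified: Cyp2c29, Cyp2c37, Cyp2c38, Cyp2c39, Cyp2c50, Cyp2c54, Cyp2c55, Cyp2c65, Cyp2c66 and Cyp2c70. A probe was taken as a member when its accession belonged to one of these genes, which gave 14 probes among the 55681 probes and the 37208 genes and transcripts measured. The genes lie in a cluster of 14 protein-coding Cyp2c genes that spans 1.18 Mb, from 39006940 to 40187286 of chromosome 19 in the GRCm38.p6 assembly. Cyp2c37 and Cyp2c38 had 2 probes each and Cyp2c54 had 3, so a gene is given by its brightest probe unless another is named.

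Liver RNA of 28 male mice was hybridised to 1-colour Agilent arrays, 1 array per animal, to compare phenobarbital (PB) in the diet with the same diet without it. CD-1 mice, an outbred stock, ate 0 or 1500 ppm PB for 7 days (n = 4 each). hCAR/hPXR mice, which carry the human receptors CAR and PXR in place of the mouse ones, ate 0 or 1000 ppm for 7 days (n = 7 each). C3H/HeNCrlCrlj mice, here C3H, ate 0 or 500 ppm for 27 weeks, and both of their groups had first received an intraperitoneal injection of diethylnitrosamine, a liver carcinogen, at 90 mg/kg (n = 3 each). Dose and strain therefore differ together between the 3 experiments, duration and carcinogen also set the C3H mice apart, and the labels do not say whether the C3H livers held tumour tissue.

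CYP2C enzymes sit in the endoplasmic reticulum of hepatocytes and oxidise drugs, steroids, bile acids and fatty acids, with electrons passed on by P450 reductase (Por). Several of them turn arachidonic acid into epoxides, lipid mediators that epoxide hydrolases then inactivate. Phenobarbital leads the nuclear receptor CAR into the nucleus, where it binds enhancers of P450 genes together with RXR, and the related receptor PXR acts on an overlapping group of genes. Cyp2b10 is the classical CAR target of mouse liver.

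All values are log2 signals relative to the 75th percentile of the same array, so 0 marks a probe at that percentile. Between 46.1% and 70.5% of probes were marked well above background on the CD-1 arrays, 46.5% to 58.6% on the hCAR/hPXR arrays and 41.3% to 46.0% on the C3H arrays. The CD-1 arrays had the lowest bright end: the 99th percentile of the processed signal lay between 4019 and 6490 there, between 30159 and 48010 in hCAR/hPXR mice and between 22576 and 31394 in C3H mice. All 4 CD-1 controls lay on 1 slide and all 4 PB animals on another, so slide and treatment cannot be told apart in CD-1 mice. Among hCAR/hPXR mice PB animal 1 shared the slide of the 7 controls and PB animals 2 to 7 had a slide of their own, while all 6 C3H arrays shared 1 slide. All 6 hepatocyte markers (among them Alb, Apoa1 and Ttr) were well above background on every array, as the liver label says. The tissue is bulk, so more RNA per cell and more cells of a kind cannot be told apart. The p-values rest on the spread between animals.

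Under PB, 6 of the 10 genes rose in CD-1 mice, 8 in hCAR/hPXR mice and 9 in C3H mice, and none fell. Cyp2c37, Cyp2c50, Cyp2c54, Cyp2c55 and Cyp2c65 rose in all 3 strains, while Cyp2c70 passed the test in none. Calls are limma's at a Benjamini-Hochberg adjusted p under 0.05 over all genes tested. As background, 1.85% of the 23782 genes tested in CD-1 mice rose and 6.13% fell, and in C3H mice 7.38% of 18271 rose and 7.3% fell. In hCAR/hPXR mice 34.9% of 20035 genes rose and 23.2% fell, so a call alone says less there. The median log2 difference of the 10 genes was 2.13 in CD-1, 1.20 in hCAR/hPXR and 1.27 in C3H mice, against -0.04, 0.13 and -0.05 over all genes tested. All PB animals lay above all controls for 6, 7 and 9 of the 10 genes in the same order of strains, against 6.62%, 12.3% and 17.3% of all genes tested. The share of rises among all calls in CD-1 mice was 23.2% here and 33.8% after quantile normalization, or 39.4% with normexp background correction before it. In C3H mice that share was 50.3%, and 60.7% with normexp.

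**Figure D1:**
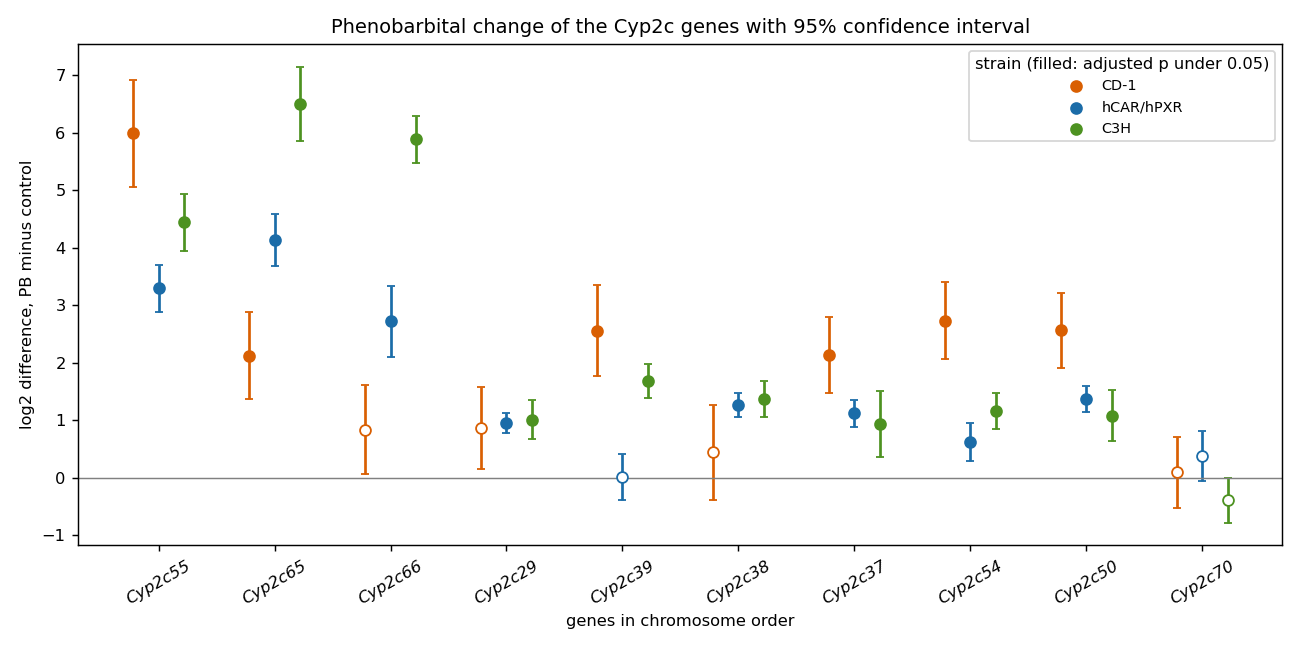
Log2 difference between PB and control animals for the 10 Cyp2c genes in chromosome order, with 95% confidence intervals, in CD-1 (n = 4 per group), hCAR/hPXR (n = 7) and C3H mice (n = 3). Cyp2c55, Cyp2c65 and Cyp2c66 at the left range from 0.84 for Cyp2c66 in CD-1 to 6.50 for Cyp2c65 in C3H mice, where the CD-1 values of Cyp2c55 and the CD-1 and C3H values of Cyp2c65 rest on controls not well above background, and Cyp2c70 at the right lies near 0 in all strains.

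The 3 genes at the proximal end of the cluster, Cyp2c55, Cyp2c65 and Cyp2c66, had the largest differences of the 10 in hCAR/hPXR and C3H mice. Cyp2c55 makes hydroxylated arachidonic acid and is a known CAR and PXR target, and Cyp2c65 and Cyp2c66 are better known from the gut. The reference sequence (C57BL/6J, RefSeq, GRCm38.p6) is shown for the promoters of Cyp2c65 and Cyp2c66 because these neighbours both rose in hCAR/hPXR and C3H mice. Both lines run from 120 bases before to 30 bases after the annotated start, on the plus strand at chr19:39060886-39061035 and chr19:39113778-39113927. Capitals mark the letters CAAAGTCCA, a form of the HNF4A site.
Cyp2c65: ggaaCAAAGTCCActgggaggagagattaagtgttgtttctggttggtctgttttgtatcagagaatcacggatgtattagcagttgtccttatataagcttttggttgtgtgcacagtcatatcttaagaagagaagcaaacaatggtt
Cyp2c66: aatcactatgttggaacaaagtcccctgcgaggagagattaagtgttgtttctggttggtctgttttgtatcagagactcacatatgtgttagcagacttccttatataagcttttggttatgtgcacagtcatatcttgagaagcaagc
Over 250 bases before and 50 after the start, the Cyp2c65 and Cyp2c66 promoters were 77.8% identical in a global alignment, whereas Cyp2c55 and Cyp2c65 were 53.2% identical. CAAAGTCCA, searched on both strands, was found in Cyp2c65 and in Cyp2c70 and in 0.475% of all 32851 promoters of that length. The half-sites AGGTCA and AGTTCA, which receptors such as CAR bind in pairs, were found in neither line, and a DR4 made of them (direct repeats with 4 bases between) was in none of the 9 member promoters held by the table and in 0.0274% of all promoters. Cyp2c54 has no entry in it.

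Cyp2c55 read -3.80, -4.43, -4.34 and -2.66 in the CD-1 controls, where no array was well above background. The PB animals of that stock read 1.21, 2.35, 2.52 and 2.67. The groups are far apart, and the rise was at least 23.4-fold with each control raised to the lowest well-measured signal of its array (limma, adjusted p = 1.62e-05, measured means -3.81 ± 0.82 and 2.19 ± 0.67, SD, n = 4). With normexp background correction, another treatment of dim signals, the difference was 2.14 and passed (limma, adjusted p = 7.88e-06), which is less than that bound, so the size rests on the background correction. The hCAR/hPXR controls ranged from 1.39 to 2.87 with a median of 2.62, and the PB animals from 5.46 to 6.02 with a median of 5.74. Every treated animal lay above every control, and the difference was 3.30 ± 0.19 (SE), or 9.84-fold (limma, adjusted p = 4.18e-08). The C3H controls read 2.18, 2.38 and 2.50 and the PB animals 6.51, 6.68 and 7.20, a 21.8-fold difference of 4.45 ± 0.21 (limma, adjusted p = 0.000335).

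Cyp2c65 was near background in untreated liver. No CD-1 control and no C3H control was well above background, and 4 of the 7 hCAR/hPXR controls were. The CD-1 controls read -2.58, -2.38, -2.70 and -3.79 and the PB animals -1.31, -0.48, -0.36 and -0.80, a rise of at least 3.16-fold without overlap (limma, adjusted p = 0.00271, measured means -2.86 and -0.74). With normexp background correction this CD-1 rise no longer passed (0.36, limma, adjusted p = 0.17). Cyp2c65 went in hCAR/hPXR mice from a median of -3.59 (-4.31 to -3.15) to one of 0.45 (-0.38 to 1.07), a difference of 4.13 ± 0.21 or 17.5-fold (limma, adjusted p = 9.04e-09). The C3H controls read -3.44, -4.16 and -3.15 and the PB animals 2.84, 3.12 and 2.80, which is at least 64.6-fold (limma, adjusted p = 0.000335, measured means -3.58 and 2.92). Normexp gave smaller differences that passed, 2.09 in hCAR/hPXR and 3.56 in C3H mice (limma, adjusted p = 1.42e-07 and 8.7e-05), the latter below the bound.

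Cyp2c66 was well above background on all 28 arrays. The CD-1 controls read 0.02, -0.53, -0.97 and -1.54 and the PB animals -0.40, 0.60, 0.28 and -0.16, so the groups overlapped and the difference of 0.84 ± 0.36 did not pass (limma, adjusted p = 0.155). The hCAR/hPXR controls ranged from -2.35 to -0.30 (median -1.82) and the PB animals from 0.17 to 1.67 (median 1.06). The groups stayed apart, by 2.72 ± 0.29 or 6.60-fold (limma, adjusted p = 8.73e-06). In C3H mice the controls at -2.47, -2.82 and -2.35 and the PB animals at 3.29, 3.54 and 3.20 differed by 5.89 ± 0.17, or 59.4-fold (limma, adjusted p = 0.000216), and by 3.70 with normexp.

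**Figure D2:**
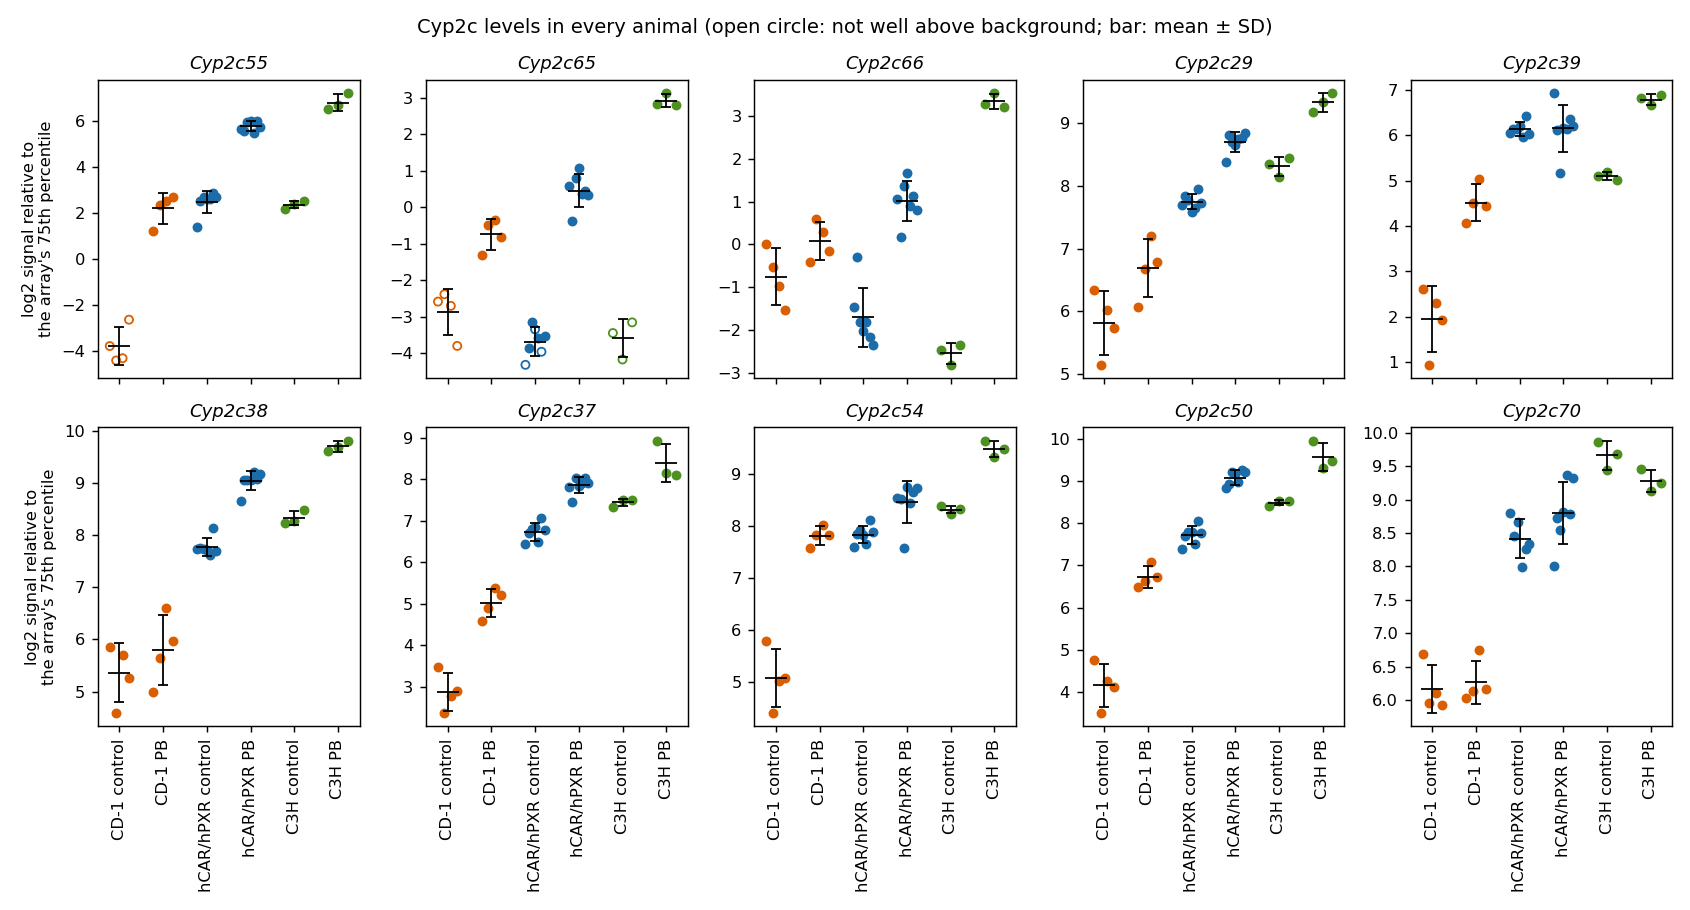
Log2 signal of each Cyp2c gene in each of the 28 animals, relative to the 75th percentile of the array, with mean ± SD per group; each panel has its own scale. Open circles are arrays on which the probe was not well above background, which for Cyp2c55 are the 4 CD-1 controls and for Cyp2c65 the CD-1 and C3H controls with 3 of the 7 hCAR/hPXR controls.

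Next to them lie Cyp2c29, Cyp2c39 and Cyp2c38. Cyp2c29 is an arachidonic acid epoxygenase and Cyp2c39 a retinoic acid hydroxylase. Cyp2c29 and Cyp2c38 rose about as much in hCAR/hPXR as in C3H mice and did not pass the test in CD-1 mice, while Cyp2c39 rose in CD-1 and C3H mice and not in hCAR/hPXR mice. The promoters of Cyp2c38 and of the upstream start of Cyp2c39 (Cyp2c39 has 2 annotated starts) are shown because they are 78.1% identical although the genes' differences were unlike. Cyp2c39 runs on the plus strand at chr19:39347226-39347375 and Cyp2c38 on the minus strand at chr19:39463046-39463195. Capitals mark the half-site AGGTCA in this Cyp2c39 promoter and TATAAA in Cyp2c38. The promoter of the other annotated start of Cyp2c39, not shown, is 72.6% identical to that of Cyp2c38. It has TATAAA and AGTTCA and no AGGTCA within 250 bases before and 50 after that start. Which start gives the transcript that the Cyp2c39 probe reads was not tested.
Cyp2c39: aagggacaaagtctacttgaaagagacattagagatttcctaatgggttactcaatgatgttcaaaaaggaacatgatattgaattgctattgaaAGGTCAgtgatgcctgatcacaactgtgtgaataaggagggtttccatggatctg
Cyp2c38: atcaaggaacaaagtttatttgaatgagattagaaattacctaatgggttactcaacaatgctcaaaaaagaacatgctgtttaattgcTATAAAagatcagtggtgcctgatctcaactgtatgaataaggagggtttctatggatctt
AGGTCA was found in 3 of the 9 members with a promoter and in 16.3% of all promoters, TATAAA in 7 of the 9 and in 13.6%, and AGTTCA in 2 of the 9 and in 13.99%.

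Cyp2c29 has 10 spots on the array, and the SD between those spots within an array had a median of 0.15 in CD-1, 0.087 in hCAR/hPXR and 0.096 in C3H mice. Its CD-1 controls read 6.35, 5.15, 6.02 and 5.73 and the PB animals 6.08, 6.68, 7.20 and 6.78, overlapping groups that differed by 0.87 ± 0.33 (limma, adjusted p = 0.117). Quantile normalization gave 0.94 and an adjusted p of 0.0285 by limma, and normexp gave 1.16 and 0.00151. All 7 hCAR/hPXR PB animals (8.39 to 8.85, median 8.75) exceeded all 7 controls (7.59 to 7.95, median 7.73), a 1.93-fold difference of 0.95 ± 0.08 (limma, adjusted p = 1.83e-06). The C3H controls read 8.35, 8.15 and 8.44 and the PB animals 9.18, 9.33 and 9.47, a 2.02-fold difference (limma, adjusted p = 0.0101, and 0.0522 with no filter on dim genes).

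Cyp2c38 overlapped between the groups of CD-1 mice, with controls at 5.86, 4.60, 5.70 and 5.27 and PB animals at 4.99, 5.64, 6.61 and 5.97 (0.44 ± 0.38, limma, adjusted p = 0.465). Normexp gave 1.05 there, with an adjusted p of 0.0048 by limma. It rose from a median of 7.73 (7.62 to 8.14) to one of 9.06 (8.66 to 9.21) in hCAR/hPXR mice, 2.42-fold without overlap (limma, adjusted p = 6.55e-07). In C3H mice it rose from 8.23, 8.27 and 8.48 to 9.60, 9.69 and 9.80, or 2.59-fold (limma, adjusted p = 0.00313). Over the 28 arrays, with each strain's control mean taken off, this probe and that of Cyp2c29 differed by a root mean square of 0.28, the second smallest among the 91 pairs of member probes.

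The other Cyp2c38 probe gave another picture. It read -0.70, -1.46, -0.25 and -0.96 in CD-1 controls and -1.32, 0.14, -0.87 and -0.99 in CD-1 PB animals, a difference of 0.09 ± 0.36 (limma, adjusted p = 0.894). Its hCAR/hPXR groups overlapped and differed by 0.37 ± 0.18 (limma, adjusted p = 0.0931). In C3H mice it read -3.997, -2.11 and -2.52 in controls, of which 1 of 3 was well above background, and 0.09, 1.46 and 2.17 in PB animals. That is a rise of 4.12 ± 0.66 (limma, adjusted p = 0.0153), against 1.37 ± 0.13 for the brighter probe. The probe sequences were not used here, so which of the related transcripts each probe binds was not tested.

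Cyp2c39 read 2.61, 0.95, 2.31 and 1.94 in CD-1 controls and 4.06, 4.51, 5.04 and 4.43 in PB animals. All 4 treated animals lay above all controls, by 5.90-fold (2.56 ± 0.37, limma, adjusted p = 0.00109). In C3H mice it rose 3.21-fold, from 5.09, 5.19 and 5.01 to 6.81, 6.65 and 6.88 (1.68 ± 0.12, limma, adjusted p = 0.00154). The hCAR/hPXR controls ranged from 5.95 to 6.42 (median 6.12) and the PB animals from 5.17 to 6.92 (median 6.16). The difference of 0.02 ± 0.19 had a 95% confidence interval from -0.39 to 0.42 (limma, adjusted p = 0.943). PB animal 1, at 6.92, was the highest of the 14 and the only PB animal on the controls' slide, and PB animal 3, at 5.17, was the lowest.

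Cyp2c37 lies side by side with Cyp2c54 and Cyp2c50, epoxygenases of arachidonic and linoleic acid, and these 3 genes rose in all 3 strains. Their differences were largest in CD-1 mice, 2.13 to 2.73, and lay between 0.62 and 1.37 in the other strains. The promoters of Cyp2c37 and Cyp2c50 were the most alike of all member pairs, with 86.6% identity, and their probes were also the closest pair over the arrays (root mean square difference 0.24). Whether these probes tell the related transcripts apart was not tested. Both are on the plus strand, at chr19:39992304-39992453 and chr19:40089559-40089708, and capitals mark AGTTCA, found in Cyp2c50 on the minus strand.
Cyp2c37: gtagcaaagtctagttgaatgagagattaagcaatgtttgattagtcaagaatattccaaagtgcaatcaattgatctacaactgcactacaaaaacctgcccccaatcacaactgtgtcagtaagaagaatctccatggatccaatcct
Cyp2c50: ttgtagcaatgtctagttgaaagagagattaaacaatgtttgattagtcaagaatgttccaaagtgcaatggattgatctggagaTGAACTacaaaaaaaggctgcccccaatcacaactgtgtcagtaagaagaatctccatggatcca
TATAAA was found in neither of these windows.

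Cyp2c37 read 3.49, 2.38, 2.77 and 2.90 in CD-1 controls and 4.59, 4.90, 5.38 and 5.20 in PB animals. The groups were apart by 2.13 ± 0.30, or 4.39-fold (limma, adjusted p = 0.00108). Its medians in hCAR/hPXR mice were 6.78 (6.44 to 7.07) and 7.90 (7.45 to 8.03), a 2.18-fold difference without overlap (limma, adjusted p = 4.89e-06). In C3H mice the controls at 7.34, 7.50 and 7.49 lay below the PB animals at 8.92, 8.14 and 8.10 (0.94 ± 0.24, 1.92-fold, limma, adjusted p = 0.0458). That call was lost when any of the 3 C3H controls or PB animals 2 or 3 was left out, with limma adjusted p-values between 0.067 and 0.139, and kept without PB animal 1.

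Cyp2c50 rose 5.92-fold in CD-1 mice, from 4.75, 3.51, 4.26 and 4.12 to 6.48, 6.62, 7.08 and 6.73 (limma, adjusted p = 0.000315). It rose 2.59-fold in hCAR/hPXR mice, where controls ranged from 7.38 to 8.04 (median 7.76) and PB animals from 8.82 to 9.26 (median 9.16; limma, adjusted p = 6.62e-07). In C3H mice it rose 2.12-fold, from 8.42, 8.52 and 8.53 to 9.95, 9.30 and 9.47 (limma, adjusted p = 0.0184). No group pair overlapped. In C3H mice PB animal 1 was the highest for both Cyp2c37 and Cyp2c50, and the Cyp2c50 call was lost without any 1 of the 3 controls (limma, adjusted p 0.0605 to 0.0731).

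Cyp2c54 rose 6.64-fold in CD-1 mice, from 5.80, 4.42, 5.03 and 5.08 to 7.59, 7.82, 8.03 and 7.83 (limma, adjusted p = 0.00022). In C3H mice it rose 2.24-fold, from 8.38, 8.24 and 8.33 to 9.63, 9.32 and 9.49 (limma, adjusted p = 0.00522). Its hCAR/hPXR controls ranged from 7.61 to 8.11 (median 7.84) and the PB animals from 7.59 to 8.76 (median 8.53). The difference was 0.62 ± 0.16 (limma, adjusted p = 0.00353), and the overlap came from PB animal 3 at 7.59, since the other 6 PB animals read 8.44 or more.

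The other probes of these genes gave the same direction and not always the same size. For Cyp2c54 they gave 2.16 ± 0.36 and 2.70 ± 0.32 in CD-1, 1.38 ± 0.11 and 1.38 ± 0.12 in hCAR/hPXR, and 1.59 ± 0.16 and 2.04 ± 0.12 in C3H mice, all past the threshold. Neither of these 2 probes had overlapping groups in hCAR/hPXR mice, and PB animal 3 read 6.72 and 5.002 on them, within the range of the other PB animals. For Cyp2c37 the other probe gave 2.09 ± 0.37 in CD-1, 1.26 ± 0.14 in C3H and 0.44 ± 0.16 in hCAR/hPXR mice, the last with overlapping groups (limma, adjusted p = 0.033).

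**Figure D3:**
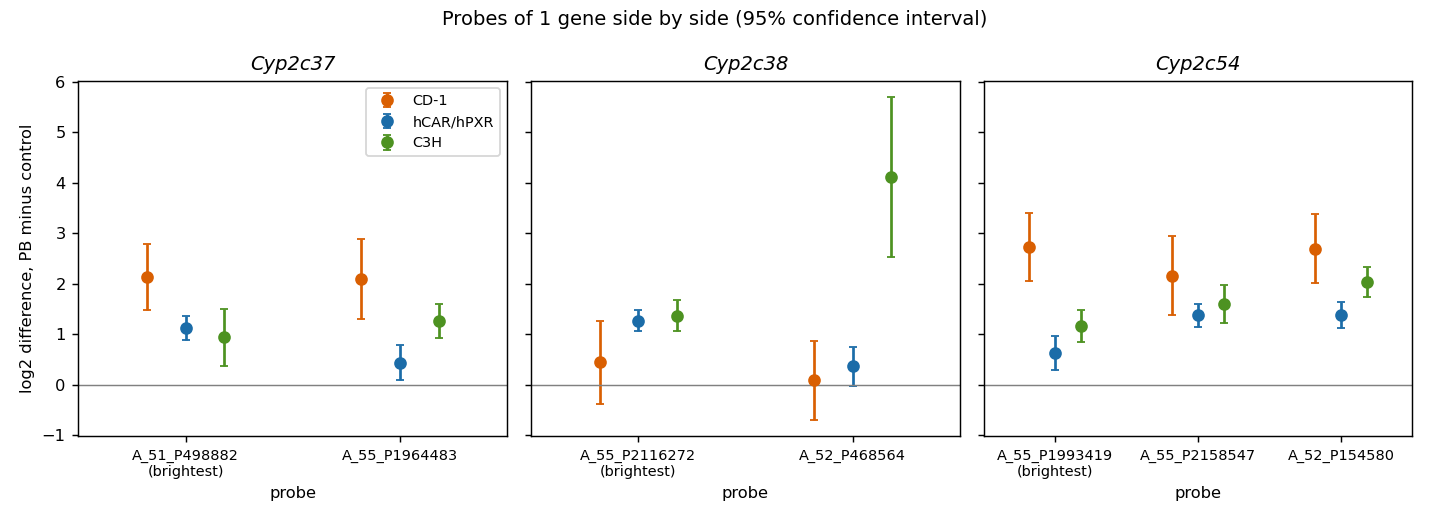
Log2 difference between PB and control for each probe of the 3 genes with several probes, with 95% confidence intervals, in CD-1 (n = 4 per group), hCAR/hPXR (n = 7) and C3H mice (n = 3). The probes of Cyp2c38 are furthest apart in C3H mice, at 1.37 and 4.12, and those of Cyp2c54 in hCAR/hPXR mice lie between 0.62 and 1.38.

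Cyp2c70, which makes the muricholic acids of mouse bile, was the distal gene of the cluster and did not pass the test in any strain. CD-1 controls read 6.69, 5.97, 6.10 and 5.93 and PB animals 6.03, 6.14, 6.75 and 6.17, a difference of 0.10 with a 95% confidence interval from -0.52 to 0.71 (limma, adjusted p = 0.849). For hCAR/hPXR mice the spot of control 6 was marked as an outlier and left out, and the 6 controls (7.99 to 8.80) and 7 PB animals (8.00 to 9.37) overlapped (0.38 ± 0.20, limma, adjusted p = 0.127). Without PB animal 1 the difference was 0.51 and passed (limma, adjusted p = 0.0201). In C3H mice controls at 9.86, 9.44 and 9.68 and PB animals at 9.45, 9.12 and 9.24 overlapped narrowly (-0.39 ± 0.16, limma, adjusted p = 0.139).

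Inside the cluster, between Cyp2c39 and Cyp2c37, the array also measured Cyp2c67 and Cyp2c68, which are not among the 10. In CD-1 mice they fell by 1.48 and by 1.19 on the log2 scale (limma, adjusted p = 0.0174 and 0.0183) while 6 members rose. Cyp2c67 also fell in hCAR/hPXR mice, by 0.26 (limma, adjusted p = 0.0225), and Cyp2c68 differed by 0.05 (0.731). In C3H mice the values were 0.47 and 0.52, and neither passed (limma, adjusted p = 0.463 and 0.373). Of the 5 flanking genes on each side, 6 were tested in CD-1 mice and none passed. In hCAR/hPXR mice 2 of 7 rose (Pdlim1 by 0.41 and Entpd1 by 0.59) and 2 fell (Noc3l by 0.64 and Tbc1d12 by 0.90), and in C3H mice 1 of 6 rose (Slc35g1 by 0.66). Over all genes tested, 1.85% rose and 6.13% fell in CD-1 mice, 34.9% rose and 23.2% fell in hCAR/hPXR mice, and 7.38% rose in C3H mice.

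**Figure D4:**
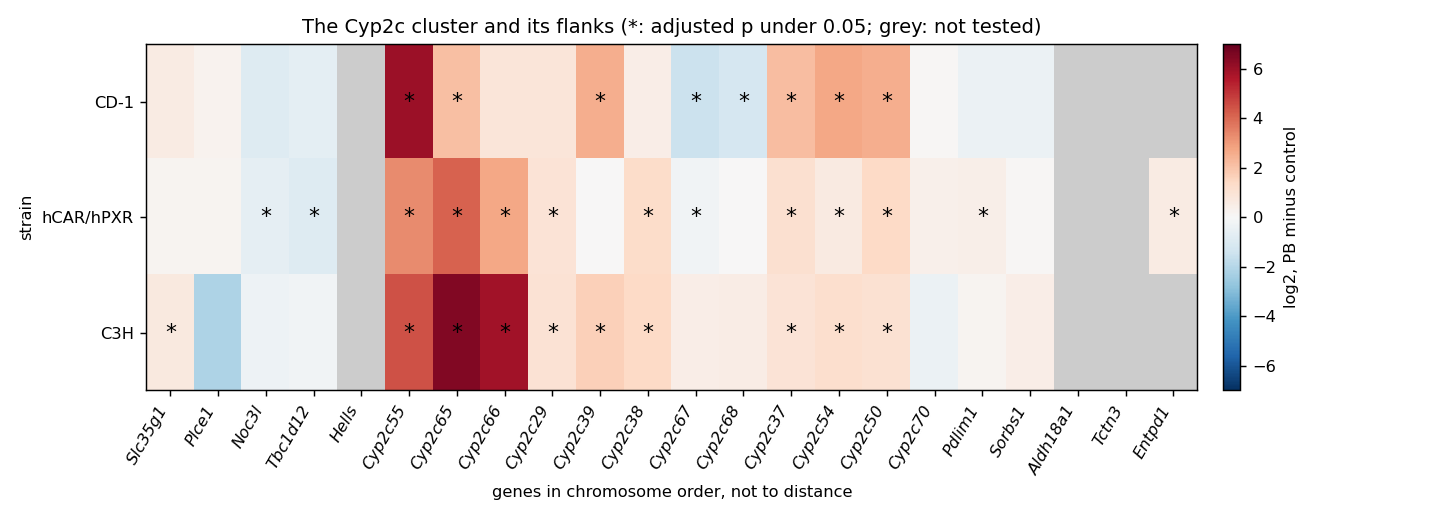
Log2 difference between PB and control for every measured gene of the Cyp2c cluster and the 5 genes on each side, in chromosome order, for CD-1, hCAR/hPXR and C3H mice; stars mark limma adjusted p under 0.05 and grey a gene that was not tested. In hCAR/hPXR and C3H mice the largest rises of Cyp2c genes sit at Cyp2c55, Cyp2c65 and Cyp2c66, and Cyp2c67 and Cyp2c68 are the Cyp2c genes that fell in CD-1 mice.

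The difference of the PB effect between experiments was tested as an interaction over all 28 arrays, which compares the strains with their doses and durations as given. Between hCAR/hPXR and CD-1 mice 8 of the 10 genes differed, against 28.6% of all 27073 genes tested. The effect was smaller in hCAR/hPXR mice for Cyp2c39 (-2.54 ± 0.36, limma, adjusted p = 3.87e-05), Cyp2c54 (-2.11), Cyp2c50 (-1.19), Cyp2c37 (-1.01) and Cyp2c55 (-2.70). It was larger for Cyp2c65 (2.01), Cyp2c66 (1.88) and Cyp2c38 (0.83, limma, adjusted p = 0.0486). The Cyp2c38 difference no longer passed with normexp (0.31, limma, adjusted p = 0.238), over the mean of both probes (0.56, 0.225), or without CD-1 control 1, 3 or 4 or CD-1 PB animal 1, 2 or 4 (0.0524 to 0.153). With normexp the Cyp2c55 value turned to 1.17 (limma, adjusted p = 0.0013), and the CD-1 controls it rests on were not well above background, so its direction depends on the background correction. The size of the Cyp2c65 difference is not fixed either, since no CD-1 control and 4 of the 7 hCAR/hPXR controls were well above background, and normexp gave 1.73 (limma, adjusted p = 5.07e-06). For Cyp2c65 and Cyp2c66 quantile normalization gave 0.94 and 0.66, which did not pass (limma, adjusted p = 0.0931 and 0.425). By its other probes Cyp2c54 gave -0.78 (limma, adjusted p = 0.0561) and -1.32 (0.0012). For Cyp2c29 the difference of effects was 0.08, with a 95% confidence interval from -0.46 to 0.61.

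Between C3H and CD-1 mice 6 of the 10 differed, against 15.1% of 26529 genes. Cyp2c66 rose more in C3H mice, by 5.05 ± 0.55 (limma, adjusted p = 6.72e-07). Cyp2c65 gave 4.38 in the same direction (limma, adjusted p = 6.28e-07), a value without a fixed size because no control of either strain was well above background, and 3.20 with normexp (3.68e-09). Cyp2c54 (-1.57), Cyp2c50 (-1.48), Cyp2c37 (-1.19) and Cyp2c55 (-1.55) rose less. Cyp2c55 turned here too with normexp, to 2.21 (limma, adjusted p = 2.3e-05). Its call was also lost on leaving out any 1 of 11 of the 14 animals (limma, adjusted p 0.0544 to 0.0898); it was kept without CD-1 control 4, CD-1 PB animal 1 or C3H PB animal 3. The Cyp2c37 call was lost without C3H PB animal 2 or 3 (limma, adjusted p = 0.0528 and 0.0581), and Cyp2c38 passed without CD-1 control 2 or PB animal 3 (1.18 and 1.20). With quantile normalization Cyp2c65 and Cyp2c66 still rose more in C3H mice, by 2.39 and 2.98 (limma, adjusted p = 0.00206 and 0.00586), and Cyp2c38 and Cyp2c39 passed as well, at 1.21 and -1.30. By their other probes the differences were -0.57 and -0.66 for Cyp2c54 and -0.82 for Cyp2c37, none of which passed (limma, adjusted p 0.177 to 0.305). The other Cyp2c38 probe rose more in C3H mice, by 4.03 (limma, adjusted p = 7.64e-05), and the mean of both probes by 2.48 (0.000183), whereas the brighter probe gave 0.93 (0.103).

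Between C3H and hCAR/hPXR mice 3 of the 10 differed, against 9.57% of 20564 genes, and all 3 rose more in C3H mice. These were Cyp2c66 (3.17 ± 0.49, limma, adjusted p = 0.000111), Cyp2c65 (2.37, 0.000605, over C3H controls not well above background, and 1.47 with normexp) and Cyp2c39 (1.67 ± 0.39, 0.00769). Quantile normalization left the Cyp2c65 difference at 1.45 (limma, adjusted p = 0.0801). For Cyp2c55 the difference was 1.15 with a 95% confidence interval from 0.21 to 2.09, which did not pass after adjustment (limma, adjusted p = 0.114), and with normexp it was 1.04 and passed (0.0218). For Cyp2c29, Cyp2c38, Cyp2c37, Cyp2c50 and Cyp2c54 the intervals, by the brightest probe, lay between -0.85 and 1.18. Cyp2c54 passed with quantile normalization (1.02, limma, adjusted p = 0.0321). By its other probe Cyp2c38 rose more in C3H mice, by 3.75 (limma, adjusted p = 4.64e-05), and by 1.92 over the mean of both probes (0.00102).

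In the control animals 8 of the 9 genes tested were higher in hCAR/hPXR than in CD-1 mice and Cyp2c66 was lower, but 88.2% of all genes differed in that comparison. Of 22657 genes tested there, 11510 were higher and 8475 lower. The same held between C3H and CD-1 controls, where 88.9% of all genes differed, 11148 of 21878 higher and 8312 lower. Strain, experiment, slide and scan coincide in these comparisons and cannot be told apart. Cyp2c55 was at least 28.5-fold higher in hCAR/hPXR controls and at least 26.2-fold higher in C3H controls than in CD-1 controls, and with normexp the differences were 2.88 and 2.51, below those bounds. Cyp2c66 was lower by 0.95 and 1.79, and with quantile normalization the first of these values was 0.06 above (limma, adjusted p = 0.908) and the other -0.40 (0.482). Without CD-1 control 1 the first did not pass either (limma, adjusted p = 0.0564). Quantile normalization also lowered the differences of the other genes from CD-1 controls, except that of Cyp2c55, for Cyp2c29 from 1.94 to 0.62 in hCAR/hPXR and from 2.50 to 0.48 in C3H mice. Between C3H and hCAR/hPXR controls 6 of 9 differed, against 48.4% of all genes. Cyp2c70 (1.24), Cyp2c50 (0.78), Cyp2c37 (0.71) and Cyp2c29 (0.57) were higher in C3H controls, and Cyp2c39 (-1.04) and Cyp2c66 (-0.84) lower, but with quantile normalization only 1 of the 9 passed. The Cyp2c66 call was lost without any 1 of the C3H controls (limma, adjusted p 0.0722 to 0.174), and that of Cyp2c29 without C3H control 1 or 3 (0.0647 and 0.0921).

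The order of the 6 group means placed C3H PB first for 9 of the 10 genes and CD-1 control last for 8. For Cyp2c50 no neighbours in that order overlapped, and its means ran from 9.57 in C3H PB over 9.08, 8.49, 7.71 and 6.73 to 4.16 in CD-1 controls. That order depends on the scaling: with quantile normalization the CD-1 PB animals lay 2.53 above the CD-1 controls, but the hCAR/hPXR and C3H controls only 2.15 and 2.23 above them. For Cyp2c55 the hCAR/hPXR controls (2.47), the C3H controls (2.35) and the CD-1 PB animals (2.19) overlapped at this scaling. With normexp the CD-1 PB animals lay 2.14 and the hCAR/hPXR controls 2.88 above the CD-1 controls. For Cyp2c54 the CD-1 PB animals (7.82) overlapped with the hCAR/hPXR controls (7.84), while quantile normalization put the former 2.46 and the latter 1.38 above the CD-1 controls. For Cyp2c70 the 2 highest groups were C3H control (9.66) and C3H PB (9.27), and all neighbours overlapped except hCAR/hPXR control and CD-1 PB.

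The slide could be examined in hCAR/hPXR mice through PB animal 1, the single treated animal on the controls' slide. With slide as a block, a fit in which the PB effect rests on that animal, 7 of the 10 genes still rose, against 1.26% of all genes. Cyp2c65 (4.24), Cyp2c55 (3.17) and Cyp2c66 (2.77) gave values near those above, and Cyp2c54 did not pass (0.70, limma, adjusted p = 0.326). Cyp2c29 gave 0.64 (limma, adjusted p = 0.023), Cyp2c38 0.89 (0.00922), Cyp2c50 1.11 (0.0103) and Cyp2c37 1.09 (0.0226). Within that slide alone 1 PB animal stands against 7 controls and is assumed to vary as they do. Cyp2c65 and Cyp2c55 differed there by 4.24 and 3.17, and fewer of the 10 genes passed than with all animals. PB animal 1 lay outside the range of the other PB animals for Cyp2c29, Cyp2c38 and Cyp2c50 (lower), Cyp2c70 (lower, -0.42 from the control mean) and Cyp2c39 (higher, 0.79 from the control mean).

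**Figure D5:**
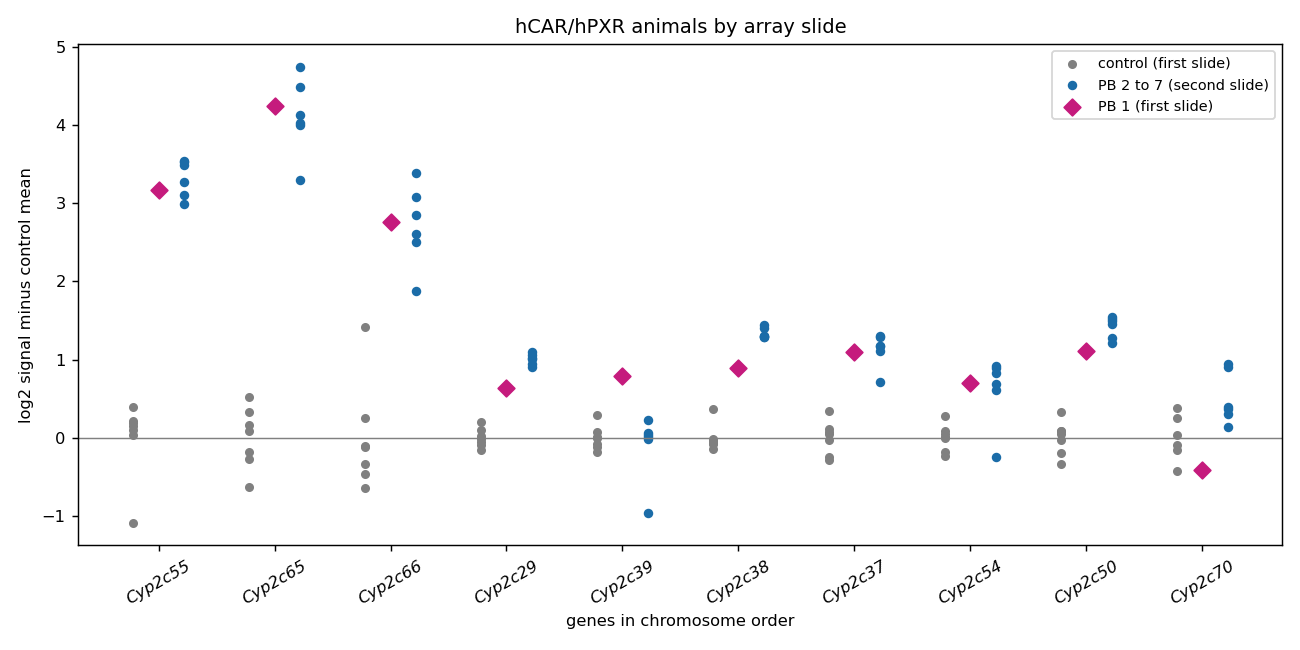
Log2 signal of each hCAR/hPXR animal minus the control mean of that gene, for the 7 controls and PB animal 1 on the first slide and PB animals 2 to 7 on the second. PB animal 1 lies inside the range of the other PB animals for Cyp2c55, Cyp2c65, Cyp2c66, Cyp2c37 and Cyp2c54, and on the other side of 0 from their mean for Cyp2c39 and Cyp2c70.

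Likeness was sought among 8931 named genes with a value on all 28 arrays and a signal well above background on every PB array. The control arrays were not held to that filter, so genes dim in controls could enter. Those whose control-centred values lay closest to Cyp2c29 were Ephx1 (root mean square difference 0.217), Pla2g12a (0.219), Ugdh (0.223) and Fyb2 (0.225). Ephx1, microsomal epoxide hydrolase, differed by 1.10, 0.89 and 1.15 in these strains (CD-1 first, C3H last), beside 0.87, 0.95 and 1.02 for Cyp2c29. The genes closest to Cyp2c55 were Meig1 (0.824), Cyp2b10 (0.875), Cyp2b9 (1.23) and Gstm3 (1.24). Cyp2b10 differed by 6.66, 4.49 and 5.74, beside 3.30 and 4.45 for Cyp2c55 in hCAR/hPXR and C3H mice. In CD-1 mice the Cyp2c55 controls were not well above background. Its rise there was at least 23.4-fold by the processed signals, while normexp gave a log2 difference of 2.14, below that bound.

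Of 8 other P450 genes of the CAR and PXR response, 4 rose in CD-1, 7 in hCAR/hPXR and 5 in C3H mice, with median differences of 1.92, 1.37 and 2.01. Over all genes tested 1.85%, 34.9% and 7.38% rose and 6.13%, 23.2% and 7.3% fell in the same order of strains. Cyp2b10 and Cyp2b9 rose in each (Cyp2b9 by 4.29, 4.90 and 5.95), and Cyp3a25 fell in C3H mice, by 0.95. Por, the reductase that supplies CYP2C enzymes with electrons, rose by 2.05, 1.09 and 2.23. Of the genes of arachidonic acid and epoxide metabolism, none of 12 passed in CD-1 mice. In hCAR/hPXR mice 3 of 15 rose (among them Ephx1) and 2 fell, Cyp2j9 (-0.59) and Ephx2 (-0.55), the soluble epoxide hydrolase. Of all genes tested there, 34.9% rose and 23.2% fell. In C3H mice Ephx1 alone rose of 14, and Cyp2j5 (-1.72), Cyp2j9 (-1.47) and Ephx2 (-0.53) fell. Of the receptors and partners, Nr1i3, which encodes CAR, fell in hCAR/hPXR mice by 0.99. How far its probe reads the human receptor of these mice was not tested.

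Markers of other cells moved with the groups in places. In CD-1 mice 3 of 6 hepatocyte markers fell (Alb by 1.97), and their summed linear level went from between 1253 and 2275 in controls to between 539 and 1101 in PB animals, with no marker below background. In C3H mice 4 of 6 fell (Alb by 0.71), with sums of 5496 to 6950 and 4601 to 4685, and none of 6 passed in hCAR/hPXR mice. In hCAR/hPXR mice 2 of 3 bile duct, 2 of 4 Kupffer cell and 2 of 4 sinusoidal endothelium markers rose (Krt19 by 0.91, Cd5l by 0.62 and Lyve1 by 0.89), and of the stellate cell markers tested 1 rose and 1 fell, as of the lymphocyte markers. Over all genes tested in hCAR/hPXR mice 34.9% rose and 23.2% fell, so these counts say little about the markers. The shares over all genes were 1.85% higher and 6.13% lower in CD-1 mice, and 7.38% higher and 7.3% lower in C3H mice. In C3H mice 1 of 3 bile duct markers tested rose (Krt19 by 2.90) and 1 fell (Sox9 by 2.80). The size of the Sox9 fall is not fixed, since Sox9 was well above background on no C3H PB array. Of 4 sinusoidal endothelium markers 1 rose there (Lyve1 by 1.34). Of 5 exocrine pancreas markers 2 were tested in C3H mice and 1 rose (Cela1 by 4.31). The pancreas markers Cpa1, Prss1 and Pnlip were well above background on no C3H array. The B cell marker Cd79a fell in CD-1 mice, by 1.66. Of the 7 intestinal epithelium markers 4, 2 and 4 could be tested (CD-1 first, C3H last), of which none rose and Lgals4 fell in hCAR/hPXR mice, by 0.57. Cdx2 was well above background on 3 CD-1 PB arrays and on no other, Muc2 on 1 CD-1 PB array alone, and the summed level was 95.4 to 133 in C3H controls and 99.5 to 263 in C3H PB animals. Of the 2 neutrophil markers tested in CD-1 mice 1 passed, S100a8, which rose by 6.67. Of the male-biased liver genes, 2, 4 and 3 of 6 fell in the same order of strains, and of the female-biased ones 3 of 4, 3 of 4 and 2 of 2 rose, while 1 fell in hCAR/hPXR mice. The part of these shifts in the Cyp2c differences was not tested.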

How the data were processed

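Liver RNA of 28 male mice in 6 groups was measured on 1-colour arrays. Per the file headers, the deposited scanner files hold intensity values from Agilent Feature Extraction: a background-subtracted processed signal per spot, its median signals, and marks for outlier spots and for signal well above background. The deposited value table holds log2 values, which matched the log2 processed signals minus a constant per array (-0.023 to 0.010 from the percentile used here). Here outlier spots were left out, spots of a probe averaged, and the 75th percentile of 55681 non-control probes subtracted. Probes were named through RefSeq accessions (GRCm38.p6), and each gene was given by its brightest probe. A gene was tested if well above background on every array of 1 group of the comparison. limma 3.58.1 (R 4.3.3; lmFit, eBayes, two-sided, Benjamini-Hochberg adjusted over all genes, threshold 0.05) was fitted within each strain, and over all 28 arrays for interactions and control contrasts. The fits were tested on simulated data. The p-values measure the spread between these animals. A group with no well-measured array has its values raised to the lowest well-measured signal of each array. Its fold is then a lower bound for the processed signals only, and normexp gave differences below several of these bounds.

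Alternatives were normexp background correction (offset 50), quantile normalization, both together (added after seeing the data), the deposited table, other filters, other probe rules, a replicate block, a slide block, 1 fit of all groups and leaving out each animal. The hCAR/hPXR animals were left out only from the PB comparison within that strain. The members, the lists and the flanking genes were chosen with earlier results of these data known. The rule named all members, up to 3 called genes of a list, the 5 flanking genes on each side and the 4 genes nearest in pattern to Cyp2c29 and to Cyp2c55; Cyp2c67, Cyp2c68 and further list genes were named after their values were seen. Promoters are RefSeq's, aligned with Biopython 1.88 (match 1, mismatch -1, gap -3 and -0.5).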

Additional observations from a re-analysis of the deposited data

Results flagged for a closer look

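Among the 40 groups of 4 to 7 animals examined for a single animal far from the rest, 6 had one, where about 1 in 20 is found by chance. All 6 were hCAR/hPXR groups. Control 1 was lowest for Cyp2c55 at 1.39 (next 2.50), and control 6 was highest for Cyp2c38 at 8.14 (next 7.75). PB animal 1, on the controls' slide, was lowest for Cyp2c29 at 8.39 (next 8.65) and for Cyp2c38 at 8.66 (next 9.05). PB animal 2 was lowest for Cyp2c37 at 7.45 (next 7.82) and PB animal 3 for Cyp2c54 at 7.59 (next 8.44).

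The PB effect differed between experiments in 17 gene comparisons, by limma's interaction test over all arrays. Between hCAR/hPXR and CD-1 mice the values, as the effect in the first minus that in the second, were -2.54 for Cyp2c39, -2.70 for Cyp2c55, 1.88 for Cyp2c66, -1.01 for Cyp2c37, -2.11 for Cyp2c54, -1.19 for Cyp2c50, 0.83 for Cyp2c38 and 2.01 for Cyp2c65. Between C3H and CD-1 mice they were -1.55 for Cyp2c55, 5.05 for Cyp2c66, -1.19 for Cyp2c37, -1.57 for Cyp2c54, -1.48 for Cyp2c50 and 4.38 for Cyp2c65. Between C3H and hCAR/hPXR mice they were 1.67 for Cyp2c39, 3.17 for Cyp2c66 and 2.37 for Cyp2c65. Dose and slide differ with the strain in each of these, and duration and carcinogen also differ where C3H mice are compared. The Cyp2c55 values against CD-1 mice and all Cyp2c65 values rest at least in part on controls not well above background.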

How the results depend on the processing

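The counts of Cyp2c genes called stayed within 1.5 times the values above under every alternative run, with these exceptions: within the first slide 2 genes passed in hCAR/hPXR mice, and between C3H and hCAR/hPXR controls 3 passed with normexp, 1 with quantile normalization and 1 with both (the last chosen after seeing the data). The cause was not tested, except that the first rests on 1 treated animal. Leaving out each animal in turn gave 6 genes in CD-1, 8 to 9 in hCAR/hPXR and 7 to 9 in C3H mice. Leaving out CD-1 or C3H animals gave 7 to 8, 4 to 6 and 3 for the interactions in the order above. For the controls it gave 8 to 9, 9 and 4 to 5. No hCAR/hPXR animal was left out of the interactions and control comparisons, so how far those rest on single hCAR/hPXR animals was not tested. With the replicate block 6, 8 and 8 genes rose, and Cyp2c37 in C3H mice did not pass (0.94, limma, adjusted p = 0.0811). The replicate numbers were not taken to pair the animals. Same-numbered animals correlated between -0.45 and 0.06 in CD-1, -0.13 and 0.27 in hCAR/hPXR and 0.04 and 0.18 in C3H mice. Animals of different numbers correlated between -0.45 and 0.52, -0.28 and 0.37, and -0.18 and 0.08 in the same order. Whether the numbers pair the C3H animals was not settled. Normexp lowers differences of dim probes: Cyp2c55 between the strains turned to 1.17 (hCAR/hPXR minus CD-1) and 2.21 (C3H minus CD-1).

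Other values that changed sign had not passed the test, or did not pass after the change. Cyp2c39 in hCAR/hPXR mice gave -0.018 with normexp, -0.22 with quantile normalization and -0.26 with both, and -0.11 to 0.18 on leaving out animals. Cyp2c70 there gave -0.42 with the slide block and within the first slide, and in CD-1 mice -0.062 to 0.27 on leaving out animals. For hCAR/hPXR minus CD-1, Cyp2c29 gave -0.19 with normexp, -0.11 with quantile normalization, -0.15 with both and -0.12 to 0.30 on leaving out animals, and Cyp2c70 -0.014 with quantile normalization. For C3H minus CD-1, Cyp2c29 gave -0.014 with normexp and -0.059 to 0.36 on leaving out animals. For C3H minus hCAR/hPXR, Cyp2c29 gave -0.020 to 0.14 on leaving out animals, Cyp2c37 0.12 with quantile normalization, 0.32 over the mean of probes and 0.011 with both, and Cyp2c50 0.086 with quantile normalization and 0.096 with both. Between controls, quantile normalization gave 0.055 for Cyp2c66 (hCAR/hPXR minus CD-1) and, for C3H minus hCAR/hPXR, -0.14 for Cyp2c29, -0.14 for Cyp2c38 and -0.23 for Cyp2c54. With both these were -0.075, -0.029 and -0.19, the mean of probes gave -0.25 for Cyp2c38, and normexp gave 0.068 for Cyp2c66.

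Over all genes, calls in CD-1 mice numbered 1897, and 4285 with normexp, 3798 with both, 6171 with 1 fit of all groups and 1163 with the replicate block. In hCAR/hPXR mice they numbered 11641, and 439 with the slide block and 251 within the first slide. In C3H mice they numbered 2683, and 1543 with the replicate block and 612 with no filter on dim probes. The lowest signals limit Cyp2c65 and CD-1 Cyp2c55.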

Other observations

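Cyp2c70 works at the end of the bile acid pathway, and of 11 genes of that pathway none rose and 2 fell in CD-1 mice and likewise in C3H mice. Of all genes tested, 1.85% rose and 6.13% fell in CD-1 mice, and 7.38% rose and 7.3% fell in C3H mice. In hCAR/hPXR mice 4 of the 11 rose and 2 fell, where 34.9% of all genes rose and 23.2% fell. There Nr1h4, the bile acid receptor FXR, rose by 0.50 and Fgfr4 by 0.45. Cyp7b1, of the alternative pathway, fell in all 3 strains, by 1.46, 0.95 and 2.14 (limma, adjusted p = 0.0121, 0.0016 and 0.0302). Baat, which joins bile acids to taurine, fell by 0.70 in hCAR/hPXR mice, Klb fell by 1.53 in CD-1 mice and Slc10a1, the bile acid importer, by 0.41 in C3H mice.

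Of the receptors and partners that act on Cyp2c genes, none rose and 2 of 9 fell in CD-1 mice (Ppara by 1.75 and Rxra by 0.96), and in hCAR/hPXR mice 1 of 8 rose (Rxra by 0.54) and 2 fell. Nr0b2, the corepressor SHP, fell by 1.89 in C3H mice. Over all genes tested 1.85%, 34.9% and 7.38% rose and 6.13%, 23.2% and 7.3% fell (CD-1 first, C3H last). The hCAR/hPXR counts therefore say little about these genes. Of 7 genes of electron supply and haem, 2 rose in CD-1, 4 in hCAR/hPXR (34.9% of all genes rose there) and 2 in C3H mice, among them Alas1, the first enzyme of haem synthesis, by 1.65 in CD-1 mice and Hmox1 by 1.20 in C3H mice.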
